A study of Mus musculus with 2 samples.

Results

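Histones carry methyl groups on lysines of their tails, and the enzymes that add them (writers) and take them off (erasers) are the subject here. The list held 41 mouse genes, chosen by name with earlier results of these data known. Of these, 24 were writers, which are methyltransferases and the non-catalytic subunits of Polycomb repressive complex 2, and 17 were erasers, which are demethylases. They are 41 of 55536 annotated genes in the series. All 41 symbols matched a gene identifier in both libraries.

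Chromatin-bound RNA was sequenced from bone marrow-derived macrophages, which are grown in culture from marrow of C57BL/6J mice. All cells had been given lipid A, the part of lipopolysaccharide that engages the receptor TLR4, at 100 ng/ml for 75 min, and ribosomal RNA was depleted before sequencing. The series has 1 group of 2 libraries, biological replicate 2 (made from 500 ng of RNA) and biological replicate 1 (made from 250 ng), and both carry the same donor label. Unstimulated cells were not analysed here, so no value below says what lipid A did, and no test between conditions was made. The labels leave unclear if the replicates are separate mice, so each SD may describe cultures rather than animals. Sex and age were not collected, per the labels.

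Methylation of histone H3 at lysine 4 (H3K4) marks promoters and enhancers, and methylation at H3K36 and H3K79 marks the bodies of transcribed genes. Methylation at H3K9 and H3K27 is tied to silent chromatin, and monomethylation of H4K20 to chromosome condensation and genome upkeep. Catalytic writers of lysine marks carry a SET domain, with Dot1l as the exception. Erasers are either flavin-dependent amine oxidases (Kdm1a and Kdm1b) or iron-dependent enzymes with a Jumonji domain (the rest of the list). In macrophages, Kdm6b is known as a gene that inflammatory stimuli induce, and Setdb2 as a gene that interferon induces.

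The annotated genes held 29638814 estimated counts in replicate 2 and 21453617 in replicate 1, and the members 209256 and 124447 of these. Members took 1.07% of the counts on protein-coding genes in replicate 2 and 1.23% in replicate 1. Protein-coding genes as a class took 66.2% of counts in replicate 2 and 47.0% in replicate 1, so the libraries differ in make-up, and the median expressed protein-coding gene had a TPM 1.73 times as high in replicate 2 as in replicate 1. TPM, a level per unit of transcript length, is relative to everything else in a library, so a mean ± SD of 2 libraries mixes that shift with a gene's own spread. Of 10 macrophage markers, 9 were at 1 TPM or more in both libraries, with a summed level of 894 TPM in replicate 2 and 586 TPM in replicate 1, of which Sirpa alone gave 403 and 278 TPM. Csf1r (40.7 TPM in replicate 2 and 45.6 TPM in replicate 1) and Itgam (2.96 and 4.19 TPM) went the other way, and were past 2-fold lower in replicate 2 by the centred log2 ratio defined further on (-1.04 and -1.12), which was below 0 for 7 of the 9 markers. Of 12 markers of T cells, B cells, neutrophils, fibroblasts, endothelium, mast cells, NK cells, plasmacytoid dendritic cells and erythroid cells, 0 reached 1 TPM in both, the highest value was 0.56 TPM, and Cd3e, Ly6g and Cpa3 were listed at 0 in both libraries. In the authors' other set of estimates, called the second quantification, Cd3d (28.8 TPM in replicate 2 and 13.0 TPM in replicate 1) and the endothelial marker Pecam1 (8.67 and 3.36 TPM) did pass 1 TPM in both. In bulk RNA, fewer cells of a type and less RNA per cell cannot be told apart.

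RNA of nearly every gene on the list was found on chromatin. A gene was called expressed at 1 TPM or more in both libraries. This held for 40 of 41 members, 23 of 24 writers and 17 of 17 erasers, against 34.7% of all protein-coding genes (7633 of 22028). The members were chosen with earlier results of these data known, so their share goes with that choice. Of related enzymes left off the list, 17 of 26 other writers and 5 of 12 other erasers were expressed. The member that missed was Suv39h1, which methylates H3K9 in constitutive heterochromatin, at 3.34 TPM in replicate 2 and 0.93 TPM in replicate 1. Its 224 counts in replicate 2 (95% Poisson interval 196 to 255) and 61.9 in replicate 1 (47.5 to 79.5) lie well above the 3 counts taken as the floor, so it was detected in both and crossed the threshold in replicate 2 alone.

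The median member stood at 22.7 TPM in replicate 2 and 12.9 TPM in replicate 1 (mean of the 2 values 17.8 ± 6.99 TPM, SD, n = 2 libraries). The median expressed protein-coding gene stood at 10.4 TPM in replicate 2 and 5.82 TPM in replicate 1. Ranked among expressed protein-coding genes, the median member lay at the percentile 73.4 in replicate 2 and 72.0 in replicate 1. The order of the members' log2(TPM + 1) was alike in the libraries, with r = 0.94 and rho = 0.95 over 41 genes. The 41 points share 2 libraries, so this describes those libraries and carries no p. TPM was higher in replicate 2 than in replicate 1 for 38 of 41 members, and lower for Dot1l, Ehmt2 and Kmt2d. The median expressed protein-coding gene was itself 1.73 times as high in replicate 2. By the centred ratio defined further on, 17 of 40 expressed members were above 0 and 23 below.

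**Figure D1:**
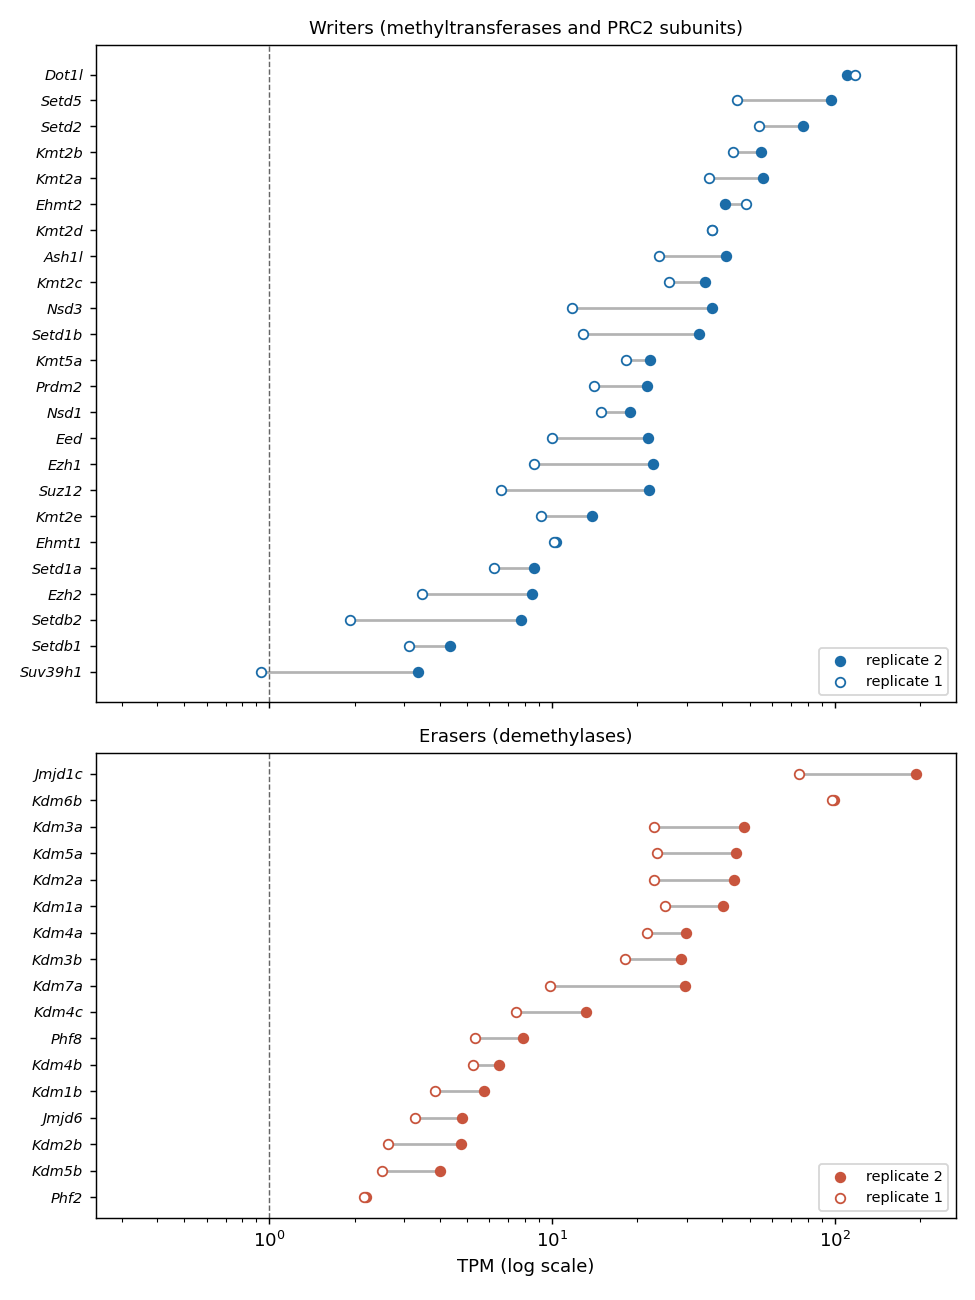
Level of each member in TPM (log axis) in replicate 2 (filled circles) and replicate 1 (open circles), writers above and erasers below, in order of mean level. The dashed line marks 1 TPM, and Suv39h1 in replicate 1 (0.93 TPM) is the point left of it.

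The 8 highest members held 51.7% of the members' summed TPM in replicate 2 and 56.7% in replicate 1. At the top were a protein of an H3K9 eraser family, the H3K79 writer and the H3K27 eraser, and the next 5 were writers. Jmjd1c, a large Jumonji protein of the Kdm3 family (chr10:67096125-67256326, + strand, mm10), had 194 TPM in replicate 2 and 74.7 TPM in replicate 1 (134 ± 84.4 TPM), and was the highest member in replicate 2. Dot1l, the H3K79 methyltransferase (chr10:80755206-80795461, + strand), had 110 TPM in replicate 2 and 117 TPM in replicate 1 (114 ± 5.15 TPM), and was the highest in replicate 1. Kdm6b, which removes H3K27 methylation (chr11:69398508-69413675, - strand), had 99.0 TPM in replicate 2 and 97.9 TPM in replicate 1 (98.5 ± 0.764 TPM). The order of these 3 differed between the libraries, and the mean of Jmjd1c exceeded that of Dot1l by less than its own SD.

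Among the next 5, Setd5, a SET-domain protein whose own methyltransferase activity is debated, had 96.5 TPM in replicate 2 and 45.0 TPM in replicate 1 (70.8 ± 36.4 TPM). Setd2, which trimethylates H3K36 behind elongating RNA polymerase II, had 77.4 TPM in replicate 2 and 54.0 TPM in replicate 1 (65.7 ± 16.5 TPM). Kmt2b had 54.9 TPM in replicate 2 and 43.6 TPM in replicate 1 (49.2 ± 8.04 TPM). These 3 and Kmt2a were all higher in replicate 2. Kmt2a, with Kmt2b a mammalian relative of Drosophila trithorax, had 55.6 TPM in replicate 2 and 35.96 TPM in replicate 1 (45.8 ± 13.9 TPM). Ehmt2, which with its partner Ehmt1 dimethylates H3K9 in euchromatin, had 40.97 TPM in replicate 2 and 48.5 TPM in replicate 1 (44.7 ± 5.30 TPM). Neighbours among these 5 differed by less than the larger of their SDs.

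The promoter of Dot1l, the highest writer, is shown for its CpG content, as CpG-rich promoters were common among the members. The 250 bases before the RefSeq start of transcription (GRCm38.p6, chr10:80754953-80755202, + strand) are 78.4% G or C and hold 44 CpG dinucleotides, in capitals.
Dot1l promoter: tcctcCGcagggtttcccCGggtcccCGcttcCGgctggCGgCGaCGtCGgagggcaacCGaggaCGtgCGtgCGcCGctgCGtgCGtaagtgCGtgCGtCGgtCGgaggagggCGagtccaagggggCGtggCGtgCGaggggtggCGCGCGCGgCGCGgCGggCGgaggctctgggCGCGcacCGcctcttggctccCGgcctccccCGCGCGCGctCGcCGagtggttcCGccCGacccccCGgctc
Such windows were available for 29 members, 40 windows in all, since some genes have several starts. The other 12 members, Kdm6b among them, had no window available, so their promoters were not searched. The 40 member windows held a median of 23.5 CpG, against 16 in windows of expressed protein-coding genes and 6 in all 32851 windows, and their median GC content was 67.4%, against 60.4% and 52.4%. The range was wide: Kdm7a had a window with 56 CpG, while Kdm3a, Kdm4c and Setd5 each had one with 0.

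Motifs of signal-dependent factors were searched on both strands in the same windows. The interferon response element (GAAA, any 2 bases, GAAA) was in the windows of 0 of 29 members, against 2.98% of all windows and 2.75% of those of expressed protein-coding genes. These shares are of windows, and a member can have several. The NF-kappaB motif (GGG, any 2 bases, TTTCC) was found for 1 of the 29 members, Setdb1, against 1.41% of all windows and 1.54% of those of expressed protein-coding genes. Setdb1, which trimethylates H3K9 at retroelements, carries it on the opposite strand, 173 to 164 bases before the start (chr3:95357203-95357452, - strand), in capitals below.
Setdb1 promoter: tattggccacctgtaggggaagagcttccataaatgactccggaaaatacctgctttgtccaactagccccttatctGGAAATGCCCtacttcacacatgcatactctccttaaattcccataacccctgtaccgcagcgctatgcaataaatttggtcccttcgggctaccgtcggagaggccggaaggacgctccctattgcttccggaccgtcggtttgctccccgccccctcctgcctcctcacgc
Setdb1 was among the lowest members, at 4.34 TPM in replicate 2 and 3.11 TPM in replicate 1. The cAMP response element TGACGTCA was found for Phf8 alone, against 1.55% of all windows and 2.77% of those of expressed protein-coding genes. The E-box CACGTG was found for Ehmt2 and Kdm4c, against 6.02% and 8.83%. The letters TATAAA were in 0 of 40 member windows, against 12.4% of all windows and 6.21% of those of expressed protein-coding genes. CCAAT was in 15 of 40 member windows (37.5%), belonging to 12 members, against 33.8% of windows in both backgrounds. A match is only a run of letters, and one missing here may lie outside these 250 bases.

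H3K4 enzymes ranged widely on both sides. The 7 writers had a median of 34.7 TPM in replicate 2 and 25.8 TPM in replicate 1, and the 4 erasers one of 22.9 TPM and 13.6 TPM. With Kdm5c, an H3K4 eraser that is not on the list, the eraser median was 40.05 TPM in replicate 2 and 23.4 TPM in replicate 1. The order of the classes thus depends on which genes are listed in replicate 2, while writers stayed higher in replicate 1. Below Kmt2b and Kmt2a came Kmt2d and Kmt2c, which monomethylate H3K4 at enhancers, at 36.8 ± 0.106 TPM and 30.2 ± 6.26 TPM. Setd1b and Setd1a, which deposit most H3K4 trimethylation, were at 22.9 ± 14.2 TPM for Setd1b and 7.42 ± 1.68 TPM for Setd1a, a gap just over the larger SD. Kmt2e, a SET-domain family member with no settled activity, stood at 11.4 ± 3.31 TPM. Of the erasers, Kdm5a (34.1 ± 15.1 TPM), a Jumonji enzyme that removes H3K4 trimethylation, stood above its relative Kdm5b (3.26 ± 1.06 TPM). Kdm1a, the amine oxidase of the CoREST complex, was at 32.5 ± 10.7 TPM and its relative Kdm1b at 4.79 ± 1.33 TPM. Within both pairs the more abundant gene exceeded the other by more than the SDs.

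Enzymes of transcribed gene bodies were high. Besides Dot1l, Setd5 and Setd2, Ash1l, a trithorax-group protein that dimethylates H3K36, was at 32.5 ± 12.2 TPM. The NSD family, which also dimethylates H3K36, was represented by Nsd3 at 24.2 ± 17.6 TPM and Nsd1 at 16.8 ± 2.75 TPM. The median of the 5 H3K36 writers was 41.2 TPM in replicate 2 and 23.9 TPM in replicate 1. Their counterparts Kdm2a and Kdm2b, Jumonji proteins that bind CpG islands through a CXXC domain, differed, at 33.4 ± 15.0 TPM for Kdm2a and 3.70 ± 1.51 TPM for Kdm2b. Kmt5a, the H4K20 monomethyltransferase, was at 20.2 ± 2.78 TPM.

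The H3K9 writers included several of the lowest members. Their 6 genes had a median of 9.04 TPM in replicate 2 and 6.64 TPM in replicate 1, where the 5 H3K9 erasers had 28.6 TPM and 18.1 TPM. These 5 leave out Kdm7a and the 3 Kdm4 enzymes, which also act on H3K9. The Kdm4 enzymes had a median of 13.2 TPM in replicate 2 and 7.44 TPM in replicate 1. The size of the gap thus depends on how the erasers are grouped. Below Ehmt2 came Prdm2, at 17.8 ± 5.34 TPM, and Ehmt1, at 10.2 ± 0.0990 TPM, so the partners of the Ehmt1 and Ehmt2 heterodimer were unequal in RNA. Setdb2, Setdb1 and Suv39h1 were all under 10 TPM in both libraries. On the eraser side, Kdm3a and Kdm3b, relatives of Jmjd1c that demethylate H3K9, were at 35.3 ± 17.6 TPM and 23.4 ± 7.41 TPM. The PHD-finger demethylases were lower, with Phf8 at 6.61 ± 1.77 TPM and Phf2 at 2.18 ± 0.0283 TPM, the lowest of the expressed members. Kdm7a, their relative that acts on H3K9 and H3K27, was at 19.6 ± 13.8 TPM. The Kdm4 enzymes, which act on H3K9 and H3K36, fell in the order Kdm4a (25.6 ± 5.71 TPM), Kdm4c (10.3 ± 4.07 TPM) and Kdm4b (5.85 ± 0.870 TPM), and the gap from Kdm4a to Kdm4c exceeded both SDs. Jmjd6, a Jumonji enzyme described both as an arginine demethylase and as a lysyl hydroxylase, was at 4.05 ± 1.08 TPM.

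At H3K27 the eraser Kdm6b lay far above the catalytic writers Ezh1 and Ezh2. Kdm7a, which acts on H3K9 and H3K27, lay near Ezh1, at 29.4 TPM in replicate 2 and 9.85 TPM in replicate 1. Ezh2, the main catalytic subunit of Polycomb repressive complex 2 in dividing cells, had 8.47 TPM in replicate 2 and 3.47 TPM in replicate 1. Ezh1, the alternative catalytic subunit, known for its prominence in non-dividing cells, had 22.7 TPM in replicate 2 and 8.60 TPM in replicate 1. Ezh1 was thus 2.68 times Ezh2 in replicate 2 and 2.48 times in replicate 1, a ratio within each library that the second quantification gave as 2.48 and 2.42. The subunits Eed, which reads H3K27 trimethylation, and Suz12, the scaffold, were at 15.9 ± 8.41 TPM and 14.3 ± 10.9 TPM.

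Kdm6b stood 11.7 times above Ezh2 in replicate 2 and 28.2 times in replicate 1, while the second quantification, which listed Ezh2 higher, gave 5.67 and 13.5 times. Its paralogue Kdm6a, an X-linked H3K27 eraser that is not on the list, had 7.18 TPM in replicate 2 and 4.53 TPM in replicate 1. That was near the level of Ezh2, and Kdm6b exceeded Kdm6a 13.8 and 21.6 times. In both libraries Kdm6b lay above the percentile 90 of expressed protein-coding genes, at 93.6 in replicate 2 and 96.7 in replicate 1. An antisense gene, Kdm6bos, overlaps Kdm6b by 1188 bases and held 295 counts in replicate 2 and 274 in replicate 1, or 1.96% and 2.11% of the counts of Kdm6b. The sources used here do not say if counting used strand, so reads of the overlap cannot be told apart. Other members overlap genes too, on either strand. Kmt2a overlaps Gm48314, an unverified transcript on the same strand with 2779 counts in replicate 2 and 836 in replicate 1. Kdm1a overlaps Luzp1 on the opposite strand by 4241 bases. Reads of a same-strand overlap cannot be told apart by strand.

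As classes, writers and erasers overlapped. The median writer had 22.4 TPM in replicate 2 and 13.5 TPM in replicate 1, and the median eraser 28.6 TPM and 9.85 TPM. On the log2(TPM + 1) scale the difference of the medians, writers minus erasers, was -0.34 in replicate 2 and 0.41 in replicate 1. The sign differed between the libraries. By the second quantification it was 0.22 in replicate 2 and 0.62 in replicate 1, with writers higher in both, so the order of the classes depends on the quantification. Of the 16 members at 20 TPM or more in both libraries, 9 were writers and 7 erasers, and of the 6 under 5 TPM in both, 2 were writers and 4 erasers.

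The libraries were next set against each other gene by gene. Each count was divided by the library's annotated total, the log2 ratio was taken as replicate 2 over replicate 1, and the median of expressed protein-coding genes, 0.49 or 1.41-fold, was subtracted. This compares 2 libraries of the same group, not conditions, and has no replicate. Past 2-fold higher in replicate 2 was 1 of 40 expressed members, Setdb2, against 4.74% of expressed protein-coding genes, and past 2-fold lower were 0 members, against 2.14%, so the members' counts lay near the background.

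Setdb2, a SET-domain protein that methylates H3K9 (chr14:59402009-59440884, - strand), had 408 counts in replicate 2 (95% Poisson interval 369 to 450) and 73 in replicate 1 (57.2 to 91.8), and 7.76 TPM in replicate 2 against 1.92 TPM in replicate 1. Its centred log2 ratio was 1.52, or 2.86-fold, with a counting error of ± 0.36 (95%) that does not include variation between cultures. Its place among expressed protein-coding genes was the percentile 41.6 in replicate 2 and 17.6 in replicate 1. Its promoter window (chr14:59440881-59441130, - strand) has 24 CpG, in capitals, 2 CCAAT boxes and no match to the interferon response element.
Setdb2 promoter: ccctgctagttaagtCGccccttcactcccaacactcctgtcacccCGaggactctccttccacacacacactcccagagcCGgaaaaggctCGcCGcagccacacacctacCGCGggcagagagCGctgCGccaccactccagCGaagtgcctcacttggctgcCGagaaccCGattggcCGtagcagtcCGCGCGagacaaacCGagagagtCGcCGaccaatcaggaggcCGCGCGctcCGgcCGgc
Setdb2 was thus found in both libraries, near the middle of the expressed genes in replicate 2 and in their lower part in replicate 1.

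Just inside 2-fold lay Ehmt2, at -0.998, and Kdm7a, at 0.98. Next on the high side were Suv39h1 at 0.89, Suz12 at 0.86, Nsd3 at 0.66 and Ezh2 at 0.54, and on the low side Dot1l at -0.86, Phf2 at -0.83, Kdm4b at -0.76 and Kdm6b at -0.75. All 4 Polycomb members (Suz12, Ezh2, Ezh1 and Eed) had ratios above 0. That of Eed (0.14) was within its counting error of ± 0.25 and became -0.12 when centred by GC as described below. Centred the same way, Ezh2 was at 0.16, within its counting error of ± 0.30, Suz12 at 0.32 and Ezh1 at 0.43. Of the 40 expressed members, 17 were above 0 and 23 below. The median ratio was -0.15 for members, -0.13 for writers and -0.22 for erasers, where 0 is the median of expressed protein-coding genes. Kdm6b, whose TPM was nearly equal in the libraries, therefore took 0.595 times the share in replicate 2 that it took in replicate 1, relative to the median gene.

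**Figure D2:**
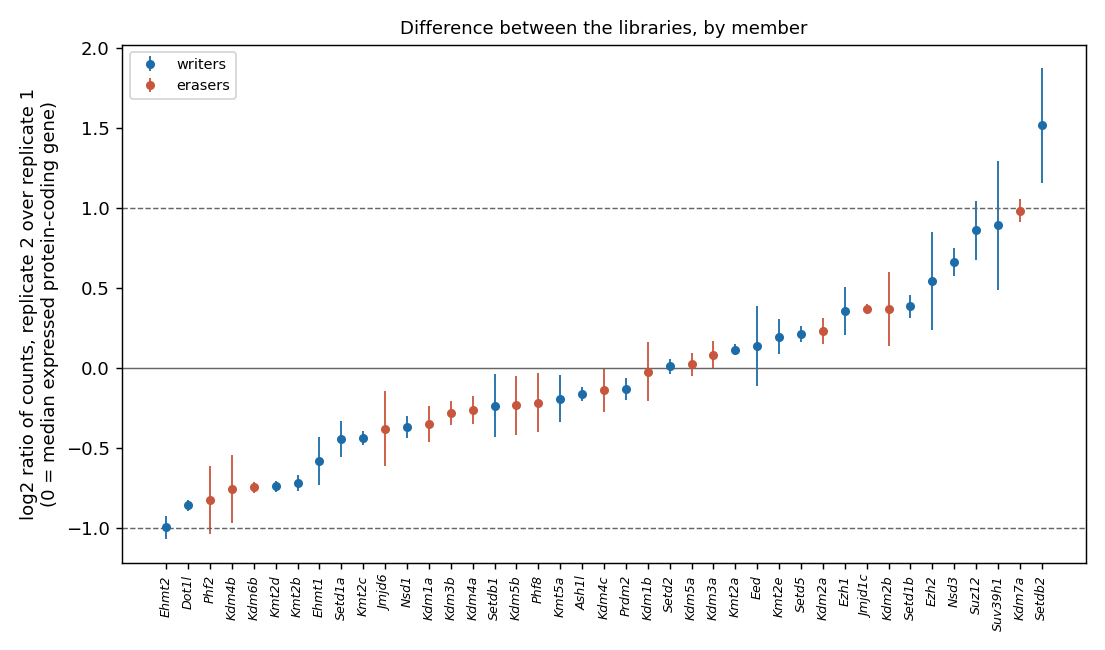
Centred log2 ratio of counts, replicate 2 over replicate 1, for the 41 members in ascending order, writers in blue and erasers in red. Bars are 95% counting error only, the solid line is the median expressed protein-coding gene and the dashed lines mark 2-fold; Setdb2 (1.52) lies beyond, Ehmt2 (-0.998) and Kdm7a (0.98) just inside.

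The members' ratios moved with base composition. Across the 40 expressed members, the centred ratio fell with the GC content of a gene's transcripts, with r = -0.71 and rho = -0.70. Among the 23 writers r was -0.67, and among the 17 erasers -0.82. Over all 7633 expressed protein-coding genes r was -0.58 and rho -0.60, so the relation was there in the libraries at large. It is a description across genes that share 2 libraries. With gene span the members' ratio had r = 0.08 and rho = 0.22, writers r = -0.05 and rho = 0.14, and erasers r = 0.36 and rho = 0.48. When expressed protein-coding genes were divided into 4 groups of nearly equal size by rising GC content, their median ratios were 0.42, 0.12, -0.15 and -0.43, and the members above 0 numbered 10 of 13, 3 of 9, 3 of 9 and 1 of 9.

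The coding sequences show the contrast between the ends of that range. For each gene, 120 bases from the middle of its longest annotated coding sequence (GENCODE M21) follow, with G and C in capitals. The first 2 come from genes with ratios above 0, Setdb2 and Suz12, whose coding sequences are 42.9% and 43.7% GC. The other 2 come from genes with ratios below 0, Ehmt2 and Kdm6b, at 61.3% and 61.7% GC.
Setdb2: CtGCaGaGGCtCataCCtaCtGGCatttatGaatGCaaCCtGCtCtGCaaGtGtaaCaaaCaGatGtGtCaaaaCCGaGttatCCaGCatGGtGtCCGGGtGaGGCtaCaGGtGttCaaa
Suz12: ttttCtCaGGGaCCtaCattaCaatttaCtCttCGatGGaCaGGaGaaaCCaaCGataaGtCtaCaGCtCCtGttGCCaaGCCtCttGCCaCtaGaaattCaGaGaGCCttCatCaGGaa
Ehmt2: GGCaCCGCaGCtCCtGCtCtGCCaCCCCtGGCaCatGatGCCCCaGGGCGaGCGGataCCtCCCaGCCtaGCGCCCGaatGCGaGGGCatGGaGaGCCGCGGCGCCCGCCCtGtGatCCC
Kdm6b: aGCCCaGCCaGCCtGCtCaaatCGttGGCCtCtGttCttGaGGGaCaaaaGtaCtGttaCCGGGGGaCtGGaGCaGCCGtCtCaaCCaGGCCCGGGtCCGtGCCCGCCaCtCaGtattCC
The stretches themselves hold 47.5%, 44.2%, 71.7% and 60.8% GC in that order.

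When ratios were centred within 10 bins of transcript GC, an alternative chosen after the data had been seen, Setdb2 stayed past 2-fold at 1.13. Ehmt2 was then at -0.47, Kdm7a at 0.44 and Kdm6b at -0.22, all closer to 0 than before. Setd1b moved the other way, to 0.91 from a centred ratio of 0.38, being high in replicate 2 for a gene of 59.0% GC. Suv39h1, which missed the threshold of expression, also moved further above 0, from 0.89 to 0.97 (counting error ± 0.40). So did Ezh1 (0.35 to 0.43), Kdm2b (0.37 to 0.45) and Kmt2a (0.11 to 0.19). The median of the members was -0.18, with 11 above 0 and 29 below. The part of RNA amount, library making or cell state in the GC relation was not tested.

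**Figure D3:**
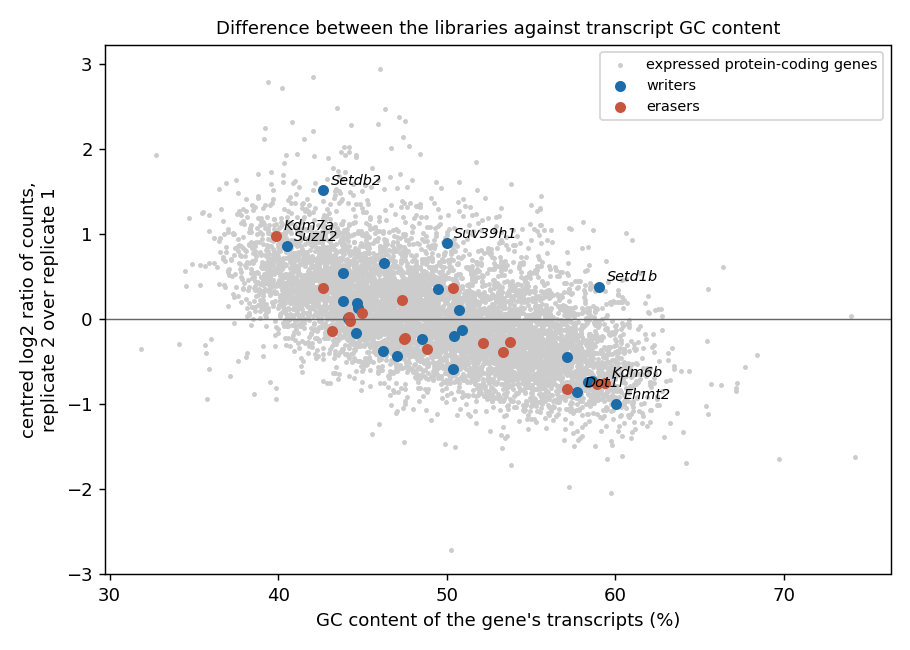
Centred log2 ratio of counts, replicate 2 over replicate 1 (vertical axis), against GC content of a gene's transcripts in percent (horizontal axis) for 7633 expressed protein-coding genes (grey), writers (blue) and erasers (red). Both classes follow the grey cloud downward (r = -0.71 for members), with Setdb2 and Setd1b near its upper edge.

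Chromatin-bound RNA includes transcripts that still hold introns, which the annotation records in part as transcripts of the type retained_intron. The share of a gene's transcript TPM on such transcripts had a median of 44.0% in replicate 2 and 35.1% in replicate 1 over the 29 expressed members that have one (39.5 ± 6.31%). Over expressed protein-coding genes it was 47.2% in replicate 2 and 44.7% in replicate 1. The share was 50% or more in both libraries for 6 of these 29 members, against 36.4% of expressed protein-coding genes with such a transcript. These 6 were Eed (80.7 ± 1.74%), Setdb1 (70.7 ± 0.0652%), Suz12 (66.9 ± 4.53%), Kdm1a (62.7 ± 12.9%), Setd5 (61.9 ± 4.08%) and Kdm2a (58.4 ± 7.54%). By TPM they thus include both non-catalytic subunits of Polycomb repressive complex 2 on the list. By counts, only Setd5 and Setdb1 of the 6 stayed at 50% or more in both libraries. Suz12 fell to 18.8% of counts in replicate 2 and 16.3% in replicate 1. Eed was at 52.3% in replicate 2 and under 50% in replicate 1. Jmjd6, not among the 6, was at 74.3% of counts in replicate 2 and 87.3% in replicate 1. The named set thus depends on the unit. By TPM, writers had a median share of 34.9% in replicate 2 and 29.8% in replicate 1, and erasers 48.8% and 36.5%.

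Short transcripts weigh heavily in TPM. Suz12-203, a retained_intron transcript of 651 bases, took 57.1% of the TPM of Suz12 in replicate 2 but 15.6% of its counts, while the coding Suz12-201, of 4373 bases, took 21.4% of the TPM and 58.3% of the counts. With counts in place of TPM, the members' median share, over both libraries, was 16.6%, against 29.1% for expressed protein-coding genes. For Kdm6b, which has no annotated retained_intron transcript, the coding Kdm6b-201 held 72.1% of TPM in replicate 2 and 67.2% in replicate 1, and 97.0% and 96.4% of counts. The rest lay on Kdm6b-202, a processed_transcript of 743 bases. Ezh2 was the reverse, with 20.4% of its TPM on coding transcripts in replicate 2 and 27.9% in replicate 1, so most of its gene-level TPM lay on transcripts not annotated as coding.

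The transcript that led a gene's TPM was the same in both libraries for 30 of 41 members and differed for 11. A coding transcript led in both for 25 members, and a retained_intron transcript led in both for 7 (Eed, Jmjd6, Kdm2a, Phf8, Setd5, Setdb1 and Suz12). Kdm5a was led in both by a transcript marked for nonsense-mediated decay, Kdm5a-206. The fragments were 250 to 400 bases long, per the labels, so the division of reads among the transcripts of a gene is an estimate of the authors' quantifier.

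**Figure D4:**
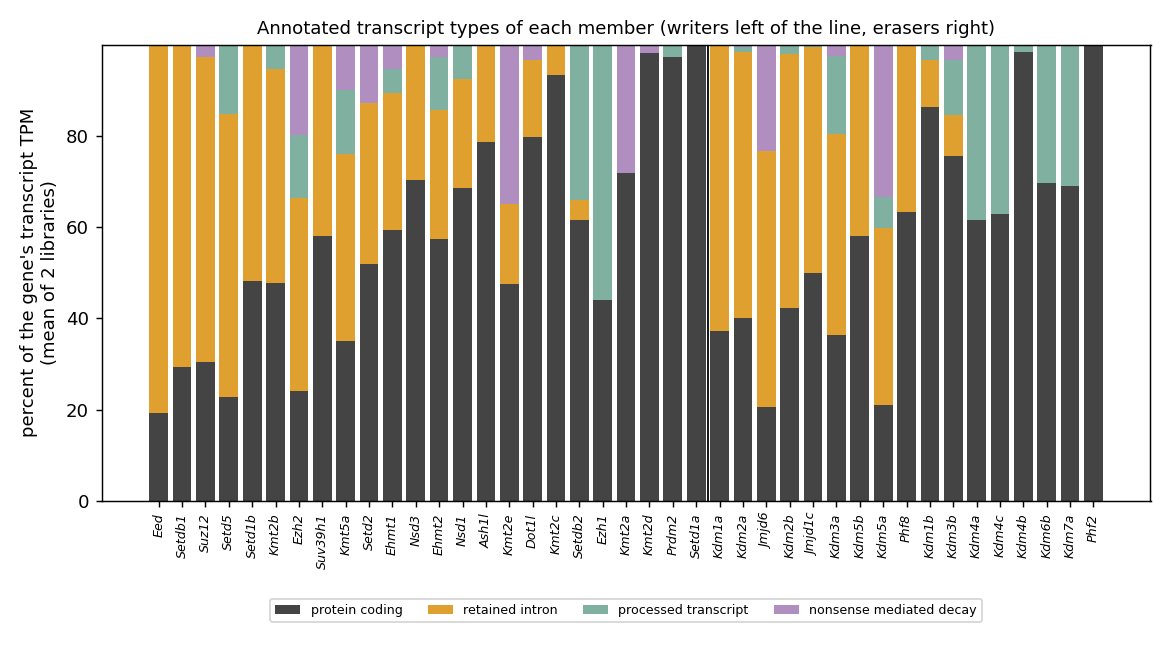
Percent of each member's transcript TPM on 4 annotated transcript types, as the mean of 2 libraries, writers left of the black line and erasers right, each class in order of retained_intron share from 80.7% (Eed) down. Kdm6b and Kdm7a have no orange segment and split between coding and processed transcripts.

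The remaining enzymes of the pathway were mostly lower. Of 26 other writers, which include the arginine methyltransferases, 17 were expressed, their median was 3.67 TPM in replicate 2 and 2.08 TPM in replicate 1, and the 3 highest were Kmt5b (21.1 ± 10.6 TPM), an H4K20 methyltransferase, Setd3 (20.4 ± 12.4 TPM), an actin histidine methyltransferase, and Nsd2 (12.2 ± 10.7 TPM), an H3K36 dimethyltransferase. Of 12 other erasers, 5 were expressed, the median was 1.14 TPM in replicate 2 and 0.44 TPM in replicate 1, and the list was led by the H3K4 demethylase Kdm5c (47.6 ± 15.1 TPM), then Riox2 (6.41 ± 3.995 TPM), a hydroxylase of a ribosomal protein, and Kdm6a (5.86 ± 1.87 TPM). Of 32 complex partners, 28 were expressed, with a median of 9.50 TPM in replicate 2 and 4.01 TPM in replicate 1, and the 3 highest, Aebp2 (70.8 ± 33.0 TPM), Jarid2 (37.4 ± 24.1 TPM) and Mtf2 (34.0 ± 19.0 TPM), are all accessory subunits of Polycomb repressive complex 2. Their means exceeded those of Ezh2, Eed, Suz12 and Ezh1, though for Jarid2 and Mtf2 the gap to Eed was less than their own SD. Other subunits of the complex on the same list were lower than these 3. Their mean levels were 10.4 TPM for Phf1, 6.84 TPM for Rbbp4, 3.775 TPM for Rbbp7, 2.06 TPM for Phf19 and 0.26 TPM for Epop.

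The histone acetylation genes are the neighbouring system. Of 26 acetyltransferases and deacetylases, 22 were expressed, with a median of 8.08 TPM in replicate 2 and 5.70 TPM in replicate 1. The members, other writers and other erasers pooled, a list that like this one includes genes of very low level, had 62 of 79 genes expressed and a median of 7.86 TPM in replicate 2 and 4.63 TPM in replicate 1. The higher median of the members, and their share expressed, thus go with the choice of genes. Among expressed genes of these further lists, 1 of 17 other writers was past 2-fold higher in replicate 2, Nsd2 (centred log2 ratio 1.17). So were 1 of 28 complex partners, the H3K36 reader Psip1 (1.37), and 1 of 22 acetylation genes, the deacetylase Sirt1 (1.00), against 4.74% of expressed protein-coding genes. Past 2-fold lower were 1 of 17 other writers, Prmt1 (-1.21), and 1 of 5 other erasers, Jmjd8 (-1.08), against 2.14%. Genes under 1 TPM in either library were not counted. Nsd2, Psip1 and Sirt1 have transcripts of 42.8%, 41.5% and 40.2% GC and Prmt1 and Jmjd8 of 55.3% each, on the same sides of the GC range as the members with high and low ratios. Centred within GC bins, none of these 5 passed 2-fold, with Nsd2 at 0.79, Psip1 at 0.83, Sirt1 at 0.47, Prmt1 at -0.84 and Jmjd8 at -0.71.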

How the data were processed

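Chromatin-fraction RNA of 2 libraries in 1 group was measured. Per the deposited text of each library, the authors derived estimated (expected) counts, TPM and FPKM per gene and transcript from reads aligned to the GENCODE M21 transcriptome of mm10, and a second set of estimated counts and TPM (the second quantification) from the reads and a transcript index. Aligner, quantifiers, their versions and use of strand are nowhere given in the sources used. Rows matched to no annotated gene held 0.277% of counts in replicate 2 and 0.409% in replicate 1 and were left out, and 3 counts equal 0.101 and 0.140 CPM.

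From these tables, levels, ratios (0.5 counts added), transcript shares and GC content, as the count-weighted mean of a gene's transcripts, were computed with Python 3.11.15, pandas 2.3.3 and numpy 2.4.6. TMM (edgeR 4.0.16) and DESeq2 1.42.0 size factors in R 4.3.3 served as alternative scalings only. The ratio step was tried on simulated data with counting error only and no GC relation. That covers the calculation and says nothing on how far these libraries differ beyond counting error. No test was made, since 1 group gives no contrast. A chi-square of the counts was 489 per degree of freedom over 14422, so the tables are not copies of a single library. Intervals are 95% Poisson and cover counting error only, as the tables carry no molecular identifiers. Promoters are RefSeq sequences (GRCm38.p6), coding sequences GENCODE M21.

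The members and lists were chosen with earlier results of these data known. Values per library were given, by rule, for the 8 highest members, those under 1 TPM in a library or past 2-fold, and Kdm6b, Kdm6a, Ezh1, Ezh2 and Setdb2; the 3 highest genes of each further pathway list were named. Genes past 2-fold in those lists, their lower Polycomb subunits, single marker values and the pooled lists were added after they were seen. So were the H3K4 median with Kdm5c, the Kdm4 median and values for other members. Alternatives were the second quantification, units, thresholds, pseudocounts, scalings and leaving out a replicate, plus centring by GC. The value of 1 marker gene is not reported here.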

Additional observations from a re-analysis of the deposited data

How the results depend on the processing

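The members' median level (17.8 TPM) was 26.8 TPM by the second quantification and 91.4 TPM when TPM was rescaled to protein-coding genes only, and was 21.1 in FPKM. Without centring (library size only), where the median expressed protein-coding gene itself lay at 0.49, members past 2-fold higher numbered 5 (Ezh2, Kdm7a, Nsd3, Setdb2 and Suz12) in place of 1. Of expressed protein-coding genes, 18.6% were past 2-fold higher under that setting, in place of 4.74%. Ehmt2 passed 2-fold lower, giving 1 such member in place of 0, under TMM (-1.07), DESeq2 size factors (-1.04) and the second quantification (-1.01). The shares of expressed protein-coding genes past 2-fold lower were 3.21%, 2.80% and 1.91% in that order. Setdb2 was past 2-fold under each of the 6 alternatives run for its ratio, from 1.13 (centred within GC bins) to 2.01 (library size only). The retained_intron share was 16.6% by counts in place of 39.5% by TPM, and 42.5% by the second quantification. Expressed members numbered 41 by the second quantification and at 0.5 TPM, and 32 at 5 TPM. The mean difference of writers minus erasers was 0.04 and ranged from -0.34 without replicate 1 to 0.41 without replicate 2, and was 0.42 by the second quantification, positive in both libraries. Leaving out either replicate gave 40 to 41 expressed members, a median level of 12.9 to 22.7 TPM and a retained_intron share of 35.1% to 44.0%; no ratio between the libraries can then be given. No paired analysis was possible because the series has 1 group. Depth limits the ratios of Suv39h1, Setdb2 and Ezh2 most, with 61.9, 73 and 116 counts in replicate 1.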

Other observations

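The second quantification listed members higher than the first, by a median of 1.53 times in replicate 2 and 1.28 times in replicate 1, and 34 of 41 members were higher in both libraries. A rise was not particular to the members. The median over expressed protein-coding genes went from 10.4 to 17.7 TPM in replicate 2 and from 5.82 to 8.77 TPM in replicate 1. The factor differed between genes: Kdm2b was listed 3.23 and 2.69 times as high, Kdm4b 2.73 and 2.09 times and Kmt5a 2.58 and 2.09 times, while Dot1l (0.960 and 0.967 times) and Kdm6b (1.01 and 0.914 times) were listed about alike and Jmjd6 lower (0.732 and 0.805 times). The order among low and middle members therefore depends on the quantification, and the reason was not tested.

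Outside the members, the Y-linked demethylases Kdm5d and Uty had 0 to 2 counts a library in the first quantification, yet the second listed Kdm5d at 7.70 TPM in replicate 2 and 2.21 TPM in replicate 1, and Uty at 10.05 TPM and 3.04 TPM.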
